A study of Mus musculus with 4 samples.

Results

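The genes described here are 8 components of the apoptotic caspase cascade, namely the caspases Casp8, Casp9 and Casp6, the adaptors Fadd and Apaf1, the inhibitors Cflar and Xiap, and the Xiap antagonist Diablo. They were taken as every probe set whose platform annotation gives a member symbol alone, which gave 24 of the 34945 probe sets with 1 symbol, for 8 of 18193 genes. The RNA came from total thymocytes, which are the thymus cells without sorting and mostly developing T cells, of mice aged 7 weeks. The study compared 2 mice hypomorphic for Atg16l1, a gene of the autophagosome machinery whose function the allele reduces, with 2 control mice, also called wild type in the labels. Each group held 1 male and 1 female, the animals were independent of each other, but no label ties a sex to an array. The sources used here give neither the kind of hypomorphic allele nor the strain or a treatment.

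Apoptosis runs through a cascade of proteases, the caspases, that are made as inactive precursors. In the death receptor route, ligand-bound receptors gather FADD and procaspase-8, and cFLIP, the product of Cflar, competes with procaspase-8 for that complex. In the mitochondrial route, cytochrome c released from mitochondria assembles APAF1 into the apoptosome, which activates caspase-9. XIAP blocks caspase-9 and some executioner caspases, and DIABLO, also known as Smac, displaces XIAP. In the thymus most precursors die, by neglect or by negative selection, largely through the mitochondrial route.

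No member passed the test for a difference between the groups. Of the 24 probe sets, 18 were bright enough to be tested, at least 1 for each of the 8 genes, and 0 of them passed an adjusted p of 0.05 in limma, where 0.0622% of all tested probe sets did. None had an unadjusted p under 0.05 either (0 of 18), against 16.1% of all tested probe sets. Their adjusted p-values in limma ran from 0.316 to 0.994. By each gene's brightest probe set, the median log2 change of the 8 members was 0.20, and that of all 10235 tested genes was 0.21. The members' changes thus lay around the median change of the tested genes. Relative to that median, 4 of the 8 were above and 4 below, from -0.15 to 0.10. The middle of the distribution of all tested genes, from its 10th to its 90th percentile, ran from -0.32 to 0.25 on the same relative scale.

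With 2 arrays per group, missing the threshold does not show that a gene was equal between the groups. For all 8 brightest probe sets the 95% interval of the log2 change relative to the median of tested genes lay within a 2-fold change in either direction, and for 7 of 8 it lay within 1.5-fold. The corresponding shares of all tested genes were 88.7% and 55.7%. Over all 18 tested member probe sets, dimmer ones included, the interval lay within 2-fold for 15 and within 1.5-fold for 9. The exception at 1.5-fold among the brightest was Casp9, whose interval ran from -0.75 to 0.45.

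Some facts of the whole set bear on these values. The arrays' median deposited signals were 38.4 and 27.4 for hypomorph replicates 1 and 2 and 23.5 and 27.4 for control replicates 1 and 2, the order kept for all values below, and the arrays were brought to a common median before testing. After centring the tested genes were still at a median of 0.21, a shift that was 0.02 with quantile normalization. Atg16l1, the targeted gene, gave 108 and 70.8 in hypomorphs against 184 and 241 in controls on its brighter probe set, lower in both hypomorphs. Thymocyte markers were bright, as all 11 on the array passed the filter with mean signals from 234 to 7088. Summed centred signals of the 5 B cell markers measured were 396 and 407 in hypomorphs against 491 and 615 in controls, and those of 8 dendritic cell and MHC class II markers were 3316 and 3415 against 4237 and 3794. Those of 6 granulocyte markers were 2152 and 3637 against 619 and 5690, those of 7 macrophage markers 569 and 341 against 621 and 529, those of 5 thymic epithelial markers 133 and 99.7 against 126 and 126, and those of 5 fibroblast and endothelial markers 187 and 205 against 211 and 184. The 4 erythroid markers measured were all below the filter, with mean signals from 3.37 to 11.05. Of the thymic epithelial markers 2 passed it, and of the fibroblast and endothelial markers only Pecam1 did, at a mean signal of 151. Such sums rest mostly on their brightest markers. Of the B cell markers, Cd79a, Ms4a1 and Cd22 were lower in both hypomorphs after centring. Cd79b, the brightest, overlapped between groups, with deposited signals of 245 and 163 against 151 and 290. Pax5, a dim B cell marker, went the other way, with deposited signals of 44.1 and 36.9 against 24.2 and 20.9. Of the dendritic cell and MHC class II markers, H2-Ab1, Itgax, Flt3 and Siglech overlapped between groups after centring, and the rest were lower in both hypomorphs. The part of these cells in the members' values was not tested, and in bulk samples fewer cells of a type and less RNA per cell cannot be told apart.

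Because the pairs Casp8 with Cflar and Casp9 with Apaf1 are compared below, the promoters of these genes are shown, the death receptor pair first. Each is the window of 250 bases before the RefSeq gene start in GRCm38.p6, written 5′ to 3′ on the gene's strand, with the GC box (GGGCGG on either strand) in capitals. Casp8 lies at chr1:58802252-58802501 on the plus strand, Cflar at chr1:58711241-58711490 on the plus strand, Casp9 at chr4:141793362-141793611 on the plus strand and Apaf1 at chr10:91082744-91082993 on the minus strand.
Casp8: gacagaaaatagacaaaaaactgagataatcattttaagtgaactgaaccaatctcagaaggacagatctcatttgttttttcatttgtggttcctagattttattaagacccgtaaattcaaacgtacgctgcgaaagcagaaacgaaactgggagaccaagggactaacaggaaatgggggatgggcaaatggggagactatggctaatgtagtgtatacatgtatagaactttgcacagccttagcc
Cflar: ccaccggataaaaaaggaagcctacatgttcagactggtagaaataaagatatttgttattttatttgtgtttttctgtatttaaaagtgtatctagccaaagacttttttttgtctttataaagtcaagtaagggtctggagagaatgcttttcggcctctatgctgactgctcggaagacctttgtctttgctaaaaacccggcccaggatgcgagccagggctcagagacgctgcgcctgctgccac
Casp9: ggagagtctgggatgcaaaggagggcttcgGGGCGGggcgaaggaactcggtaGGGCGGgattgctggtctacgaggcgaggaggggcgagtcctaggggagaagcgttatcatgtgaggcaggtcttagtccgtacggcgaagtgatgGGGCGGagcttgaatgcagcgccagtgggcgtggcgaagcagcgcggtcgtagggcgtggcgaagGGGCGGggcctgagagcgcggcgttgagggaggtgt
Apaf1: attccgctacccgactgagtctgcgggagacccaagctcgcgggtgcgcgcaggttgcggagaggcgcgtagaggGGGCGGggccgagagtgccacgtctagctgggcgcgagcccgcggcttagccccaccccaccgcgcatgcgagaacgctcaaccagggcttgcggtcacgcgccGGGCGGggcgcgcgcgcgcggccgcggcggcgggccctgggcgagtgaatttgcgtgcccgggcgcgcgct

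The windows of Casp8 and Cflar differed in composition from those of the apoptosome pair. This did not hold for every gene of the death receptor route. The window of Fadd, not printed here though its pair with Casp8 is compared below, had 60.4% G and C and 2 GC boxes. Casp8 and Cflar had 39.6% and 42.8% G and C and no GC box, whereas Casp9 and Apaf1 had 66.0% and 75.6%, with 4 and 2 GC boxes. Over all 32851 promoter windows the median was 52.4%, and 32.7% held a GC box. Of other motifs sought on both strands, TATAAA was found in Cflar alone among these 4 (2 matches, 1 on each strand, that overlap in the same stretch and are not separate places; in 12.4% of all windows) and CCAAT in Casp8 alone (1 match; in 33.8%). These matches describe letters in the window and are not binding sites. Cflar and Casp8 were adjacent among the chromosome 1 genes on the array, 198 and 197 places from Atg16l1, which is on the same chromosome. The other members lay on other chromosomes.

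In the death receptor route, Casp8, the initiator protease of that route, was measured by 1 probe set. That probe set (1424552_at) had deposited signals of 703 and 490 in hypomorphs and 332 and 434 in controls. Both hypomorph values lay above both control values, and they still did after centring, at mean log2 signals of 9.04 ± 0.04 (SD, n = 2) against 8.74 ± 0.13 (SD, n = 2). The log2 change was 0.30 ± 0.14 (SE), or 0.08 relative to the median of tested genes (adjusted p in limma 0.316). The change of Casp8 thus stood higher than those of 70.1% of tested probe sets.

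Fadd, the adaptor that joins the receptors to procaspase-8, had 2 probe sets whose log2 changes differed in sign, although both lay below the median of tested genes. On the brighter one (1416888_at), signals were 117 and 99.95 in hypomorphs and 59.2 and 97.4 in controls, so that control replicate 1 was low and the other 3 arrays were close to each other. Its log2 change was 0.17 ± 0.24 (SE; limma's adjusted p was 0.725), or -0.04 relative to that median. The other, dim probe set (1446499_at) had signals of 35.6 and 20.2 in hypomorphs and 23.9 and 38.6 in controls, and after centring both hypomorphs were below both controls. It was at -0.49 ± 0.35 (SE), or -0.70 relative to the median of tested genes, with an adjusted p of 0.478.

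Cflar, which encodes the procaspase-8 competitor cFLIP, had 5 probe sets, all tested. On the brightest (1424996_at), signals were 433 and 365 in hypomorphs and 248 and 331 in controls. After centring the groups overlapped, at 8.48 ± 0.15 (SD, n = 2) against 8.34 ± 0.15 (SD, n = 2) on the log2 scale. The log2 change was 0.14 ± 0.15 (SE; limma's adjusted p was 0.638). Relative to the median of tested genes all 5 were below 0, from -0.39 to -0.04, and the lowest was the dimmest of the 5. All 5 intervals include that median.

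In the mitochondrial route, the probe sets of Casp9, the initiator protease of the apoptosome, were dim. The only one tested (1437537_at) had signals of 62.8 and 43.9 in hypomorphs and 35.9 and 43.7 in controls, and a log2 change of 0.06 ± 0.27 (SE; adjusted p 0.926 in limma). This was the lowest change among the members' brightest probe sets, at -0.15 relative to the median of tested genes. A second Casp9 probe set (1426125_a_at), under the filter on dim signals, had 6.90 and 11.1 in hypomorphs against 26.5 and 34.3 in controls. It showed the widest gap between groups of the 24, and both hypomorphs were below both controls. In the fit without that filter its log2 change was -1.87 ± 0.56 (SE), with an unadjusted p of 0.00886 and an adjusted p of 0.387 in limma. The third Casp9 probe set was between 6.08 and 8.05 on all 4 arrays, with overlapping groups. In the fit without the filter both dim probe sets lay below that fit's median of tested genes, at -2.02 and -0.39 relative to it. All 3 probe sets of the gene were thus lower than the median change, and none passed the test.

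Apaf1, the scaffold of the apoptosome, had 2 probe sets, both tested. Its brightest probe set (1452870_at) had signals of 424 and 351 in hypomorphs and 216 and 297 in controls, without overlap before or after centring. The log2 change was 0.28 ± 0.16 (SE), or 0.06 relative to the median of tested genes (limma's adjusted p 0.382). On its other probe set (1450223_at) hypomorph replicate 1 stood alone at 141, while the remaining hypomorph was at 56.7 and the controls at 55.5 and 65.9. Without hypomorph replicate 1 the log2 change of that probe set went from 0.22 to -0.19.

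Casp6, an executioner caspase that cleaves nuclear lamins among other targets, had the highest relative change of the 8. Its brightest probe set (1415995_at) had signals of 769 and 552 in hypomorphs and 335 and 523 in controls. Control replicate 1 was the low value, so that the controls spread more (8.88 ± 0.31, SD, n = 2, centred log2) than the hypomorphs (9.19 ± 0.01, SD, n = 2). The log2 change was 0.31 ± 0.16 (SE), or 0.10 relative to the median of tested genes (limma's adjusted p 0.348). Without control replicate 1 it was 0.09, and without control replicate 2 it was 0.53. The other Casp6 probe set (1458715_at) had 160 in hypomorph replicate 1 and 64.4, 73.2 and 87.9 on the other 3 arrays, and a log2 change of 0.01 ± 0.27 (SE).

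Among the regulators downstream of mitochondria, Xiap encodes an inhibitor of caspase-9 and of some executioner caspases. It was measured by 7 probe sets, the most of any member. The brightest (1437533_at) had signals of 1553 and 1119 in hypomorphs and 904 and 1066 in controls. After centring the replicates of each group were nearly equal, at 10.20 ± 0.01 against 10.11 ± 0.03 (SD, n = 2 each) on the log2 scale. Its log2 change of 0.10 ± 0.13 (SE) had the smallest standard error of the members and an adjusted p of 0.707 in limma, and it lay at -0.11 relative to the median of tested genes. The groups did not overlap, yet 64.1% of tested probe sets had an equal or higher change.

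The further Xiap probe sets gave opposite signs. Of the tested ones, 1450232_at was at -0.74 ± 0.38 (SE; adjusted p 0.345 in limma), with signals of 26.6 and 38.9 in hypomorphs and 32.8 and 57.6 in controls. The other, 1456088_at, was at 0.10 ± 0.22 (SE). Under the filter, 1450231_a_at had signals of 31.7 and 19.4 in hypomorphs against 5.65 and 13.1 in controls, and 1421394_a_at had 20.1 and 16.3 against 0.527 and 10.02. These last 2, higher in both hypomorphs, share their source accession with the probe set at -0.74. In the fit without the filter their log2 changes were 0.97 and 1.46, with adjusted p-values of 0.551 and 0.496 in limma. The remaining pair had signals between 12.6 and 31.7, with overlapping groups.

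Diablo, the mitochondrial protein that displaces XIAP from caspases, had signals of 589 and 411 in hypomorphs and 281 and 394 in controls on its brighter probe set (1417683_at). Its log2 change was 0.23 ± 0.15 (SE), or 0.02 relative to the median of tested genes (limma's adjusted p 0.427). The dimmer probe set (1425768_at) had 69.4 and 60.1 against 47.0 and 44.5 and a log2 change of 0.15 ± 0.27 (SE). Relative to the median of tested genes it was at -0.06, so the probe sets of Diablo lay on either side of that median, each by less than its standard error.

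**Figure D1:**
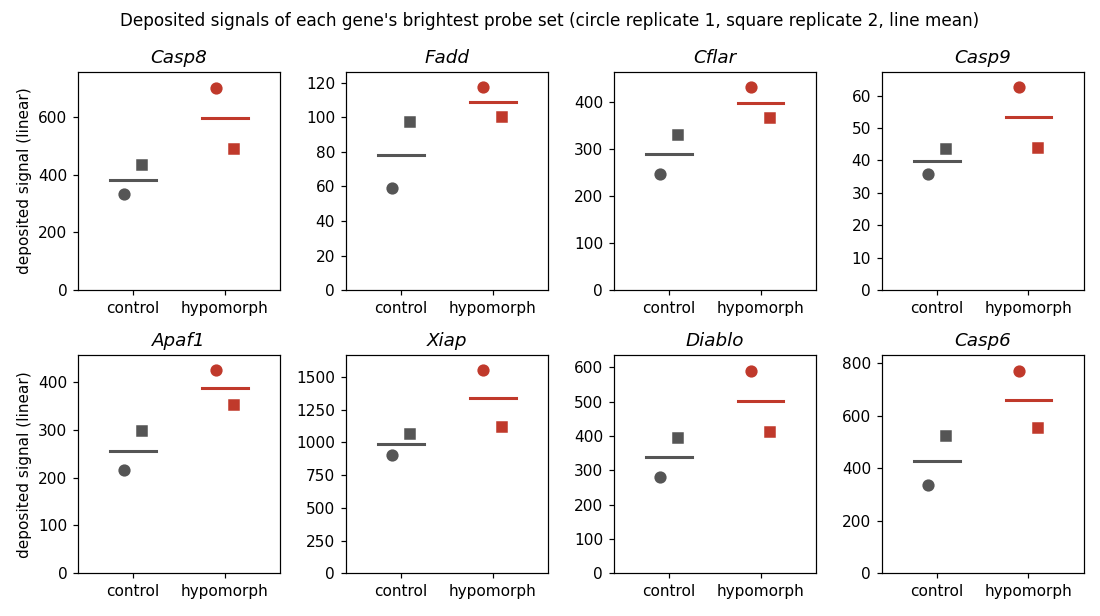
Deposited signals (linear, each axis from 0) of the brightest probe set of each of the 8 genes, with control arrays in grey and hypomorph arrays in red, circles for replicate 1, squares for replicate 2 and lines for the mean of 2 arrays. In all 8 panels both hypomorph arrays lie above both control arrays, as they do for 74.3% of all tested genes before centring.

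Before centring, the hypomorph signals of all 8 brightest probe sets lay above the control signals, as the plot of deposited signals shows. This held for 74.3% of all tested genes, and the median signal of hypomorph replicate 1 was the highest of the arrays and that of control replicate 1 the lowest. After centring it held for 6 of the 8, against 51.7% of tested genes, the exceptions being Fadd and Cflar. Counted over the 18 tested probe sets, it held for 6, against 43.8% of all tested ones, and the reverse order held for 1, against 7.04%. Of the 10 further tested probe sets, none had both hypomorphs above both controls, and 9 lay below the median change of tested genes, with a median of -0.15 relative to it. Of all tested probe sets that were not the brightest of their gene, 53.3% lay below it, at a median of -0.02. Hypomorph replicate 1 was the highest centred value on 5 of the 8 brightest and 5 of the 10 further probe sets, against 31.0% of all tested probe sets.

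**Figure D2:**
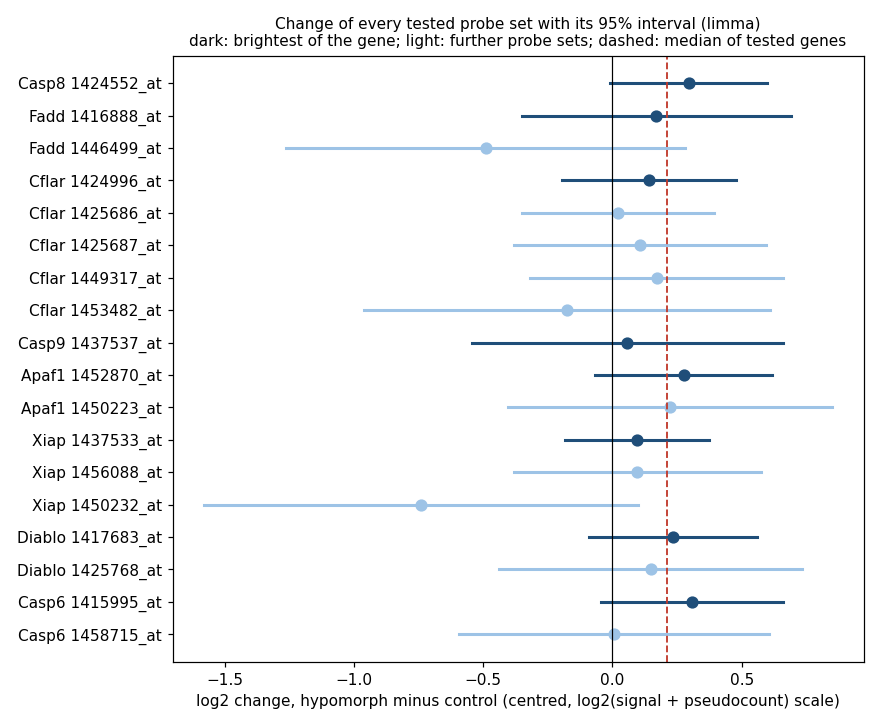
Log2 change (hypomorph minus control, centred values; horizontal axis) of the 18 tested probe sets with 95% intervals from limma, the brightest of each gene in dark blue and the others in light blue. Every interval includes 0, and the brightest probe sets gather around the dashed line, the median change of tested genes at 0.21.

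The interval plot shows where single probe sets left that band. The probe set of Xiap at -0.74 was the farthest from the median, at -0.95 relative to it, and the dim Fadd probe set was next at -0.70. The 95% interval of the Xiap one relative to that median, without adjustment for the number of probe sets, ran from -1.79 to -0.11. Mean signals of these 2 probe sets were 39.0 and 29.6, and their standard errors were 0.38 and 0.35, against 0.13 to 0.27 for the brightest probe sets. When arrays were centred on tested probe sets alone, the Xiap one had an unadjusted p of 0.0417 and an adjusted p of 0.659 in limma.

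Partners that act on each other were then set against each other within each array, a measure that the centring of arrays does not change. Each value is the log2 signal of one gene minus that of its partner, given relative to the control mean, so that only differences in change are read. For Cflar minus Casp8 the arrays were at -0.29 and -0.02 in hypomorphs and at -0.02 and 0.02 in controls, a mean difference of -0.15 with groups that overlapped slightly. The hypomorph animals thus differed more from each other than the control animals did, and the mean rested on hypomorph replicate 1. For Fadd minus Casp8 the values were -0.27 and 0.02 in hypomorphs and -0.16 and 0.16 in controls, with overlapping groups. For Apaf1 minus Casp9 they were 0.10 and 0.33 in hypomorphs and -0.10 and 0.10 in controls, a mean difference of 0.22 that was 0.06 with quantile normalization. The groups of this pair did not overlap, by a narrow margin. For Diablo minus Xiap they were 0.16 and 0.11 against -0.13 and 0.13, a mean difference of 0.14 with overlapping groups. The two-sided exact permutation p was 0.333 for Apaf1 minus Casp9, the smallest that 2 arrays against 2 allow, and 0.667 for each of the other 3 pairs, so that no pair could have passed.

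**Figure D3:**
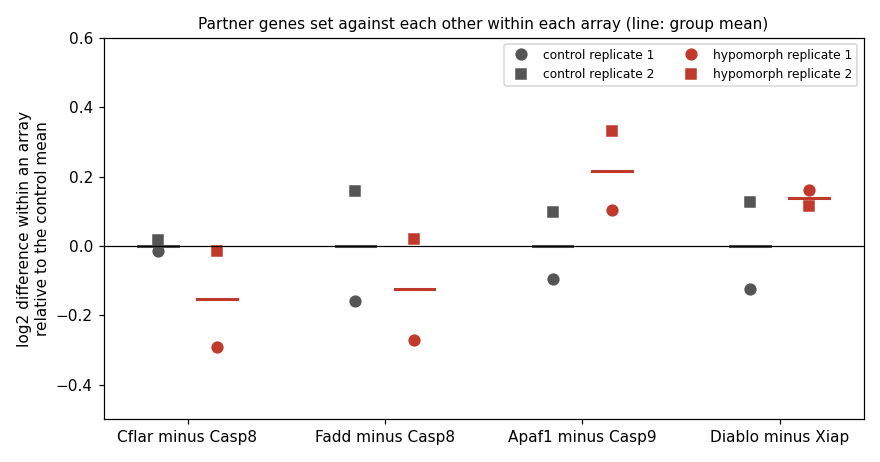
Log2 signal of one gene minus that of its partner within each array, relative to the control mean (vertical axis), for 4 pairs, with control arrays in grey, hypomorph arrays in red and lines for group means. The groups separate narrowly for Apaf1 minus Casp9 (mean difference 0.22) and overlap for the other 3 pairs, and hypomorph replicate 1 is the lowest array for Cflar minus Casp8 and Fadd minus Casp8.

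Other genes of the same pathway were read from a list of 45, of which 41 were named by the array's annotation and 38 were tested; the other 4 were not analysed here. None was called in limma (0 of 38, against 0.0391% of tested genes), and 5 had an unadjusted p under 0.05, all of them higher in hypomorphs. That is 13.2% of the 38, against 18.2% of tested genes. The unadjusted p-values of these 5 in limma depended on scaling. They were 0.272 to 0.628 with quantile normalization and 0.128 to 0.292 with arrays centred on the tested probe sets. Relative to the median of tested genes 17 were above and 21 below, with a median of -0.03. The changes of single pathway genes below are relative to that median unless stated otherwise. Their p-values test the log2 change itself against 0, not the relative change.

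Among the caspases of the list, Casp2, which acts in the PIDDosome, had signals of 1180 and 663 in hypomorphs and 449 and 612 in controls. Its log2 change was 0.42, or 0.21 relative to the median of tested genes, with a 95% interval of the relative change from -0.14 to 0.56. The adjusted p of the change of 0.42 in limma, 0.273, was the lowest of the list. Casp14, a caspase of the epidermis and dim here, was at 0.25 (adjusted p 0.577).

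Of 15 tested death receptors, ligands and adaptors, 5 lay above the median of tested genes and 10 below, with a median of -0.11. The death receptor gene Fas had signals of 886 and 728 in hypomorphs and 395 and 620 in controls, and a relative log2 change of 0.16. Ripk3, a kinase of necroptosis, was at 0.18, Dedd, a death effector domain protein, at 0.12, and Bid, the BH3 protein that caspase-8 cleaves, at 0.05. Their adjusted p-values in limma were 0.289 to 0.385, so that none of these receptor-side genes passed.

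The 5 mitochondrial factors had a median of 0.03, with Septin4, whose isoform ARTS binds XIAP, at 0.33, Aifm1, which encodes apoptosis-inducing factor, at 0.11, and the cytochrome c gene Cycs at 0.03. Htra2, a mitochondrial protease that also binds XIAP, was at -0.17, from a log2 change of 0.05. The adjusted p-values of these 4 in limma were 0.306 to 0.925.

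The 5 tested genes of the inhibitor group had the lowest median of the 5 groups, at -0.17. Birc2, which encodes the ubiquitin ligase cIAP1, was at 0.03 and Aven, an inhibitor that binds APAF1, at 0.03, while Xaf1, a XIAP-associated factor, was at -0.17 and Birc6, a large inhibitor of apoptosis protein, at -0.19. Before the median was subtracted, their log2 changes were 0.24, 0.24, 0.04 and 0.03 in that order. Adjusted p-values of these 4 in limma were 0.437 to 0.941. Xiap itself, with -0.11 on its brightest probe set, lay within the range of this group, -0.20 to 0.03.

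Of 11 nuclease and caspase substrate genes, 5 were above the median and 6 below. Parp1, a DNA repair enzyme that caspases cleave, was at 0.09, Acin1, a factor of apoptotic chromatin condensation, at 0.07, Dffa, the inhibitor of the caspase-activated nuclease, at 0.09 and the lamin gene Lmnb1 at 0.11. Adjusted p-values in limma were 0.305 to 0.372. None of these genes passed.

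**Figure D4:**
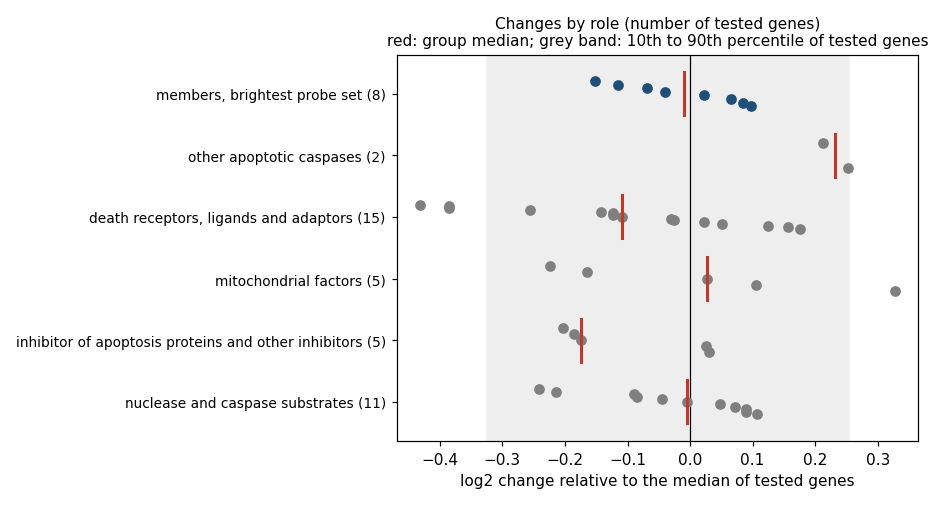
Log2 change relative to the median of tested genes (horizontal axis) of the brightest probe set of the 8 members and of 38 further pathway genes in 5 groups, with group medians in red and the 10th to 90th percentile of all tested genes (-0.32 to 0.25) in grey. All 8 members lie inside the grey band, between -0.15 and 0.10.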

How the data were processed

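Arrays were of Affymetrix make, 1 per animal, with biotin labelling of total thymocyte RNA, per the labels' protocols. The deposited table holds linear intensity values, 1 signal per probe set, from GCOS per the submitters' processing notes, with version and scaling not given in the sources used here. After 64 control probe sets were left out, 45037 remained: 34945 carried 1 gene symbol, 932 several and 9160 none. Values were taken as log2(signal + 2.29), the 10th percentile of all signals, and centred on the common array median. On this log2(value + pseudocount) scale the change of a dim gene is understated. The 22519 probe sets at or above the median of mean log2 signals (a signal of about 26.9) were tested with limma 3.58.1 in R 4.3.3 (variance trend, two-sided, Benjamini-Hochberg over all tested probe sets), without covariates. Where a gene had several tested probe sets, the brightest stood for it. P-values test against a change of 0, and relative changes subtract 0.21. The number of arrays, 2 per group, limits precision. Alternatives changed scaling, pseudocount, filter, variance model, a replicate block, gene summary and single arrays. All members were named, and from the pathway list up to 4 genes per group with the smallest unadjusted p. Members and lists were chosen with earlier results of these data known. Promoters and gene order came from RefSeq tables of GRCm38.p6, which matched all 8 members.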

Additional observations from a re-analysis of the deposited data

How the results depend on the processing

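No member probe set and no pathway gene was called by limma under any alternative, and the members' adjusted p-values stayed at or above 0.191, the value without control replicate 2, where 4 of 18 had an unadjusted p under 0.05. The number of all probe sets called, 14, was 4 with quantile normalization, 7 with arrays centred on the tested probe sets, 84 without centring, 4 without the filter, 0 without the variance trend (2492 at an unadjusted p under 0.05) and 8 to 340 with 1 array left out. Each fit of that last kind leaves 1 array in a group, assumed to vary like the other group. Blocking on replicate number gave 9 probe sets called, and members stayed uncalled. Deviations of same-numbered arrays from their group means were only weakly correlated (r = 0.08 over tested probe sets). With 2 arrays per group, this 1 correlation cannot show whether same-numbered arrays share more than a number. A shared sex, for instance, was not tested, as no label ties a sex to an array. The members' median relative change, -0.0091, was -0.091 with the mean of all probe sets of a gene and -0.073 to 0.12 with 1 array left out, the highest without control replicate 2. The difference for Apaf1 minus Casp9, 0.22, was 0.056 with quantile normalization.

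Signs of small log2 changes depended on scaling: of 18 tested member probe sets 13 turned in at least 1 alternative, and 5 kept their sign in all that were run on them (the brightest of Casp8, Casp6 and Apaf1, the dim one of Fadd and that of Xiap at -0.74). With quantile normalization Casp6 1458715_at was at -0.14, Casp9 1437537_at at -0.011, Cflar 1424996_at, 1425686_at and 1425687_at at -0.092, -0.20 and -0.047, Xiap 1437533_at and 1456088_at at -0.13 and -0.075, and Diablo 1417683_at at -0.0047. With arrays centred on the tested probe sets Casp6 1458715_at was at -0.17, Casp9 1437537_at at -0.12, Fadd 1416888_at at -0.0036, Cflar 1424996_at, 1425686_at, 1425687_at and 1449317_at at -0.032, -0.15, -0.066 and -0.0031, Xiap 1437533_at and 1456088_at at -0.078 and -0.077, and Diablo 1425768_at at -0.026. Without centring Cflar 1453482_at was at 0.15, and without a pseudocount Casp6 1458715_at was at -0.014 and Cflar 1425686_at at -0.0010. With 1 array left out the ranges were -0.41 to 0.42 for Casp6 1458715_at, -0.19 to 0.63 for Apaf1 1450223_at, -0.078 to 0.42 for Fadd 1416888_at, -0.18 to 0.22, -0.062 to 0.28 and -0.46 to 0.11 for Cflar 1425686_at, 1425687_at and 1453482_at, and -0.20 to 0.39 for Xiap 1456088_at. The median change of tested genes, 0.21, was 0.02 with quantile normalization, 0.04 with arrays centred on the tested probe sets, 0.54 without centring and 0.19 without a pseudocount. What turned the signs was not tested further. Signals near the pseudocount limit the dim probe sets of Casp9 and Xiap.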
